A study of Mus musculus with 4 samples.

Results

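The sections with a high type 2A myosin share were 41 of 171 cross-sections kept by the authors along 4 mouse tibialis anterior muscles. They were chosen by the counts of 3 myosin heavy chain genes. In each section the score was the count of Myh2 (type 2A myosin) divided by the summed counts of Myh1 (type 2X), Myh2 and Myh4 (type 2B). In each muscle the quartile of kept sections with the highest score, here called high sections, was set against the quartile with the lowest, 41 low sections in all. Muscles 1 to 4 gave 9, 11, 11 and 10 sections to each side, out of 37, 45, 46 and 43 kept. The tibialis anterior, which lifts the foot, is a fast muscle of the shin. All 4 muscles belong to 1 group, labelled only as mouse tibialis anterior. The labels give no strain, genotype, age, sex or treatment and do not say whether the muscles came from separate animals, so p-values measure only the spread between these samples, which may be technical. The method was TOMO-seq, in which a frozen tissue is cut into consecutive sections and the RNA of each is sequenced under its own barcode.

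A muscle fibre takes its type from the myosin heavy chain it makes. Type 1 fibres are slow and oxidative, type 2A fibres are fast and oxidative with a high resistance to fatigue, and type 2X and 2B fibres are progressively faster and more glycolytic. Oxidative fibres hold more mitochondria and myoglobin, burn fatty acids and lie among denser capillaries, while type 2B fibres store glycogen and depend on glycolysis. A tibialis anterior of a mouse is made mostly of type 2B and 2X fibres, with type 2A fibres gathered in its deep part. A whole cross-section holds fibres of several types together with vessels, nerve, connective tissue and blood. In such bulk sections fewer cells of a type and less RNA per cell cannot be told apart.

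The 3 myosin genes of the score lie in a row on the plus strand of chromosome 11. Their promoters are shown because the score rests on them, beside those of Ankrd2 and Lmod2, the genes that were higher in the high sections also when sections were compared within the same stretch of the muscle. Each sequence runs 5′ to 3′ from 250 bases before to 30 bases after the RefSeq gene start, build GRCm38.p6, all on the plus strand. They cover chr11:67170777-67171056 (Myh2), chr11:67199852-67200131 (Myh1), chr11:67237562-67237841 (Myh4), chr19:42035777-42036056 (Ankrd2) and chr6:24597521-24597800 (Lmod2). Capitals mark matches, on either strand, to the MEF2 motif, the CArG box, the TATA sequence TATAAA and the MCAT core CATTCC.
Myh2: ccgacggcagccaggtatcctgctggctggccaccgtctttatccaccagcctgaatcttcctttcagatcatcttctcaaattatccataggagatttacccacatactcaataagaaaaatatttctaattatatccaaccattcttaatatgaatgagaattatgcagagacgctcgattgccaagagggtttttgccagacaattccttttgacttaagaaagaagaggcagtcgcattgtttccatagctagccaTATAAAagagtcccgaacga
Myh1: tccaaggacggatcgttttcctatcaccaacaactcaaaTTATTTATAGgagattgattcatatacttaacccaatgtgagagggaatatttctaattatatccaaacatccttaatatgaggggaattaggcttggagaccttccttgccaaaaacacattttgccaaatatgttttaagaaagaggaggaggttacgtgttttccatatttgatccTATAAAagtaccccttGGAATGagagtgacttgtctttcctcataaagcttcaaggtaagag
Myh4: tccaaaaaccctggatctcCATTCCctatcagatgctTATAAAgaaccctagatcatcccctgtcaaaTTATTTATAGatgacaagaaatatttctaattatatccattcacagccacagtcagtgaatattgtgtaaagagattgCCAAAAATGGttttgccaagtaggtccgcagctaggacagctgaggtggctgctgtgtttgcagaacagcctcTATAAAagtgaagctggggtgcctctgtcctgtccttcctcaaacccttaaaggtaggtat
Ankrd2: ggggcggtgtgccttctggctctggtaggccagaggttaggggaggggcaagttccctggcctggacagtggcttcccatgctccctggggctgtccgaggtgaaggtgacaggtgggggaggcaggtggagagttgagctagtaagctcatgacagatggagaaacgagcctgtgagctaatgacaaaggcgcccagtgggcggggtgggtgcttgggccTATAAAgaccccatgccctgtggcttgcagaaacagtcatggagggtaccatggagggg
Lmod2: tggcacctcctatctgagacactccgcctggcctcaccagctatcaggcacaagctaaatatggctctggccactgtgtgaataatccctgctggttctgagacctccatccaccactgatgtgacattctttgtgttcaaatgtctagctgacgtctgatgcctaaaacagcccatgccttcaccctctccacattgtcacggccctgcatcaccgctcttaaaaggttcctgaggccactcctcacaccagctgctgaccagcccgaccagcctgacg
Myh1 and Myh4 each had a MEF2 match, starting 211 and 182 bases before the gene start. Inside each of these matches lay a TATAAA match on the minus strand. Upstream TATAAA matches on the plus strand started 32 bases before the gene start in Myh1, 31 and 213 in Myh4 and 29 in Ankrd2. In Myh2 the TATAAA match began 11 bases after the annotated start. A CATTCC match began 231 bases before the start in Myh4 and, on the minus strand, 16 bases before it in Myh1. Myh4 alone of the 5 had a CArG match, 104 bases before its start, and Lmod2 had none of the 4 motifs in this window. Of 32851 RefSeq promoters of the same length, 3.07% held a MEF2 match, 1.56% a CArG match, 13.1% TATAAA and 13.9% CATTCC. A match is a description of the letters and not a binding site.

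Myh2 was a small part of the summed myosin counts in every section. Its share ran from 2.30% to 14.2% in muscle 1 (median 7.66%), from 1.58% to 19.6% in muscle 2 (median 8.15%), from 0.143% to 4.40% in muscle 3 (median 2.36%) and from 0.169% to 3.23% in muscle 4 (median 1.29%). Myh4 had the highest count of the 3 genes in all 171 sections, and Myh2 in 0. The label "high type 2A share" is therefore relative to the muscle. With counts summed over a side, the share was 11.8%, 12%, 3.93% and 2.35% in the high sections of muscles 1 to 4, and 3.92%, 3.83%, 0.962% and 0.730% in the low sections. The low sections of muscles 1 and 2 thus had a share close to that of the high sections of muscle 3 and above that of muscle 4. Muscles 1 and 2 were labelled with another set of section barcodes than muscles 3 and 4. At the upper edge, the lowest section inside the high side and the highest one outside it had shares of 9.43% and 9.35% in muscle 1, 10.27% and 10.26% in muscle 2, 3.34% and 3.10% in muscle 3 and 1.91% and 1.79% in muscle 4. At the lower edge, the highest section inside the low side and the lowest one outside it had 6.08% and 6.14%, 5.52% and 5.64%, 1.58% and 1.72%, and 0.918% and 0.922%.

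The levels of the 3 myosins that made the score follow as a description, as counts scaled to a common library total (CPM, with TMM). Myh2 was at 886, 696, 283 and 190 CPM in the high sections of muscles 1 to 4 and at 324, 284, 93.9 and 70.8 CPM in the low sections. Its fitted log2 difference, high minus low, was 1.43. Myh1 differed by 0.33 and Myh4 by -0.47. Myh4 used up to 94% of its possible molecular tags in a single section (muscle 3), so its corrected count, and with it the share, is uncertain in the richest sections.

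**Figure D1:**
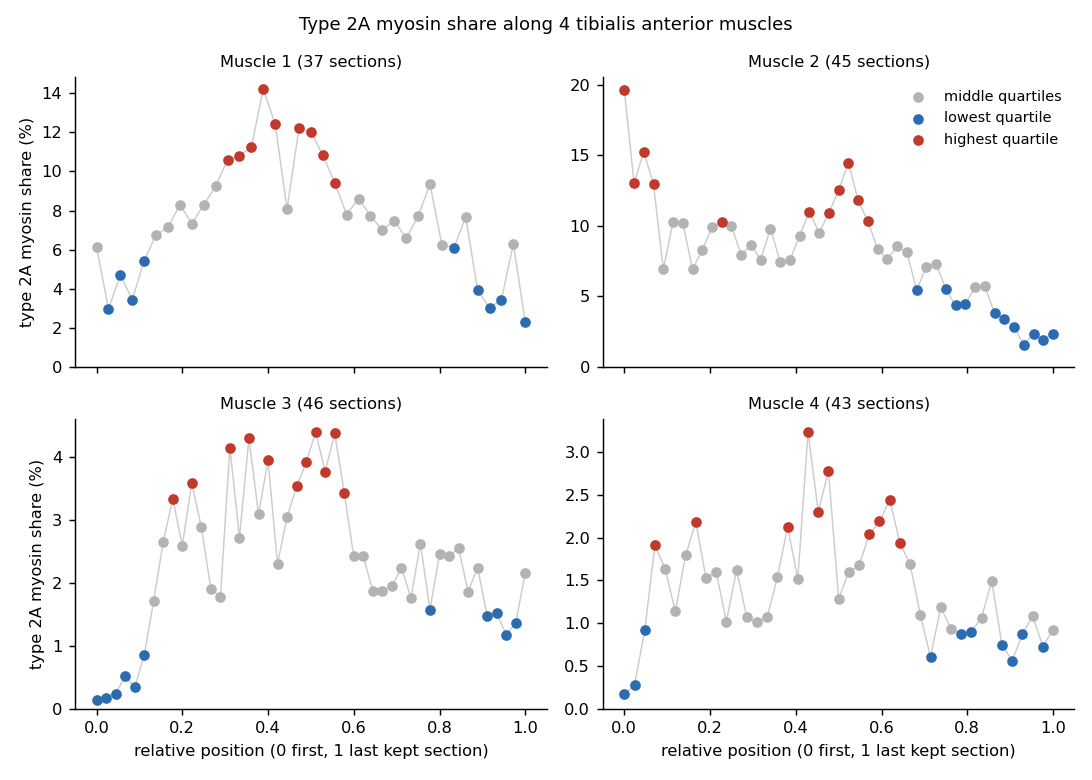
Type 2A myosin share (Myh2 as a percentage of Myh1, Myh2 and Myh4 counts, y axis) of each kept section against its relative position in barcode order (x axis), 1 panel per muscle, with the highest quartile in red, the lowest in blue and the others in grey. High sections lie mostly in the middle of the muscle and in muscle 2 also at its first end, while no low section lies in the middle one of 3 equal stretches of any muscle; the y axes differ between panels.

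High and low sections also differed in where they lay and how deeply they were read. With sections ordered by barcode number and each muscle divided into 3 stretches of equal length, 30 of the 41 high sections lay in the middle stretch, 11 in the first and 0 in the last. Of the 41 low sections 13 lay in the first stretch, 0 in the middle and 28 in the last. Across the sections of a muscle the Spearman correlation of the share with distance from the middle was -0.85, -0.34, -0.74 and -0.62 in muscles 1 to 4 (37, 45, 46 and 43 sections, which share a library). With position from the first to the last section it was -0.15, -0.74, 0.001 and -0.25, so in muscle 2 the share fell from the first end to the last. The median section held 546944 transcripts on the high side and 309504 on the low side. Mitochondrially encoded genes took 58.5%, 64.7%, 63.2% and 64.4% of the transcripts in the high sections and 63%, 57.3%, 67.5% and 66.6% in the low sections. Position and share moved together and cannot be told apart in the comparison of quartiles. The leading genes and lists are therefore given again further on for sections of more closely matched position.

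High sections had more RNA of 7 of 9 tested slow-type contractile and calcium genes and of 5 of 11 tested fatty acid uptake genes. They had less of 9 of 21 fast-type genes, 6 of 25 glycolytic genes and 5 of 6 tendon genes. The lists were chosen with earlier results of these data known. Some tendon genes passed the filter on low counts mainly through the low sections, so the tendon count is no support by itself. Among the genes named by the rule (same sign in all 4 muscles, 10 CPM or more), Ankrd2, Myl3 and Lmod2 led the rises. Prg4, Mss51 and Net1 led the falls. Some genes at lower levels, such as Mbp and Chad, differed by more. Summed counts of each muscle and side (2766886 to 7709586 transcripts per sum) were tested with edgeR's quasi-likelihood test with muscle as a block. At an adjusted p below 0.05, 298 of 8260 genes passed (3.61%), 159 higher in the high sections (1.92%) and 139 lower (1.68%). Of these, 258 had the same sign in all 4 muscles. The median log2 difference over all genes tested was -0.01. The count fell to 150 without muscle 1 and to 108 without muscle 3, and was 112 in muscles 1 and 2 alone and 99 in muscles 3 and 4 alone. With a score that leaves Myh4 out (Myh2 over Myh1 and Myh2), which kept 32 of the 41 high and 29 of the 41 low sections, 47 genes passed.

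**Figure D2:**
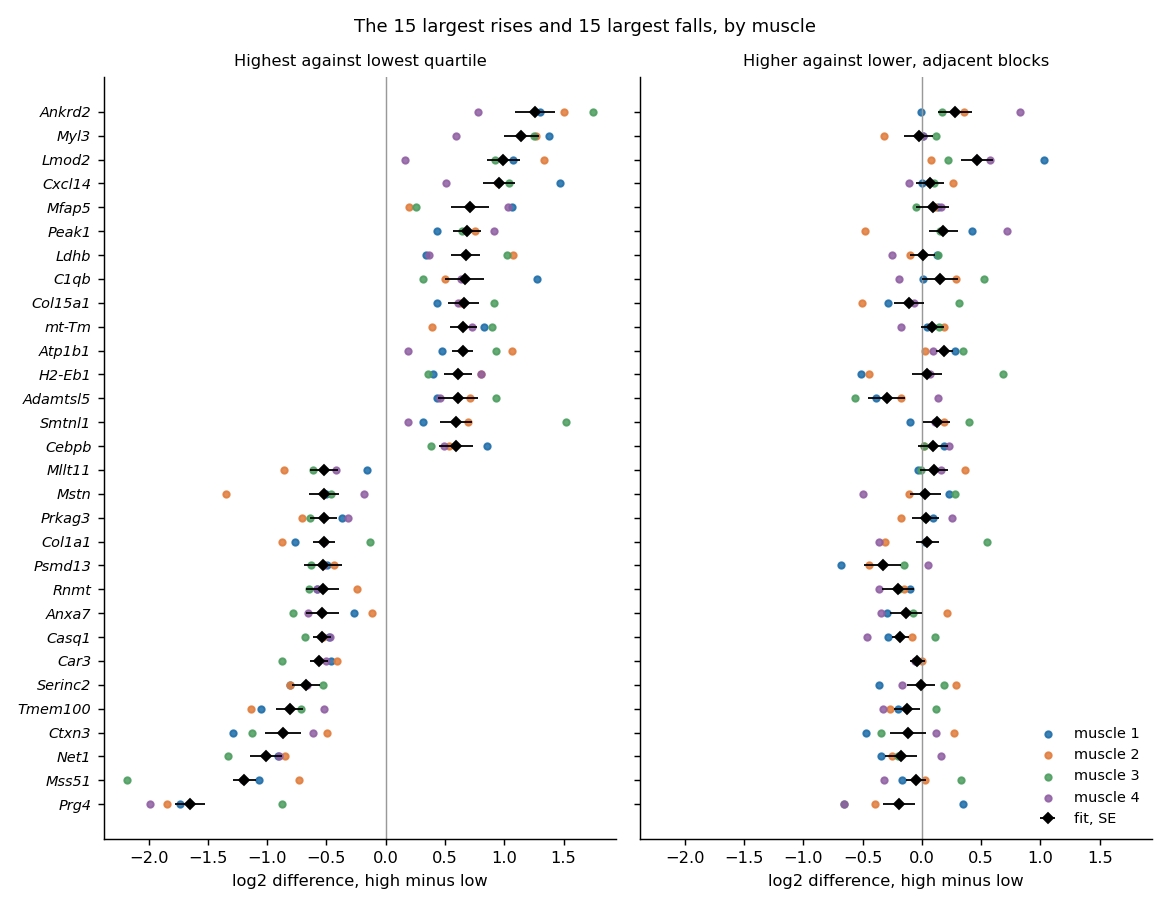
Log2 differences, high minus low (x axis), of the 15 top rises and 15 top falls (y axis) between the highest and lowest quartiles (left) and between the higher and lower sections of adjacent blocks (right). Coloured points are single muscles and black diamonds the edgeR estimate with its SE; on the left all 4 muscles lie on the same side of 0 for each gene, as the naming rule asked, and on the right most estimates lie near 0.

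Most tested slow-type genes were higher in the high sections. Of 17 genes in the list of slow contractile and calcium genes, 9 passed the filter on low counts, and 7 of these rose and 0 fell, with a median log2 difference of 0.88. Ankrd2, an ankyrin repeat protein that binds titin and is most abundant in slow fibres, had 19.9, 13.5, 13.1 and 16.7 CPM in the high sections of muscles 1 to 4 and 8.03, 4.71, 3.81 and 9.69 CPM in the low sections (chr19:42036000-42045110). The sides did not overlap, and the difference was 1.26 ± 0.17 log2 units (SE, edgeR adjusted p = 2.24e-08), a 2.40-fold higher level. Myl3, the essential light chain of slow and ventricular myosin (chr9:110741861-110769798), had 41.9, 14.6, 14.8 and 16.3 CPM against 16.1, 5.97, 6.16 and 10.8 CPM. It was higher in each muscle, but the level of muscle 1 was so high that the sides overlapped across muscles (1.14 ± 0.15, edgeR adjusted p = 5.99e-09). Lmod2, a leiomodin that lengthens thin filaments (chr6:24597762-24605414), had 32.2, 39.7, 16.7 and 8.76 CPM against 15.2, 15.7, 8.80 and 7.80 CPM. Its difference of 0.99 ± 0.14 (edgeR adjusted p = 1.17e-07) was carried by muscles 1 to 3, at 1.08, 1.33 and 0.92, with 0.17 in muscle 4.

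The other slow-type rises were those of the Z-disc protein Myoz2 (1.20 ± 0.18), the muscle LIM protein Csrp3 (0.88 ± 0.27), the calsequestrin of slow and cardiac muscle Casq2 (0.54 ± 0.14) and the slow tropomyosin gene Tpm3 (0.52 ± 0.16). Casq2 rose in muscles 2 to 4 and differed by -0.02 in muscle 1. The SERCA2 pump gene Atp2a2 did not pass the test (-0.24 ± 0.19), nor did Myl6b (0.15 ± 0.21). The defining type 1 markers stood near 0 on both sides and were not tested: Myh7, the type 1 myosin, was between 0 and 0.361 CPM in the high sections and between 0 and 0.294 CPM in the low ones. Tnnt1, the slow troponin T, was between 0.827 and 2.30 CPM in the high sections and between 0 and 0.883 CPM in the low ones. The tested genes all reached the level that the filter asks for in 4 high sums, and in 4 low sums except Csrp3, with 3. Members below that level were not tested, and the list was chosen with earlier results of these data known. The count over those tested is therefore no support for the whole list. With Myh4 left out of the score, Lmod2, Myl3 and Myoz2 still passed and the other slow-type genes did not. DESeq2 called 0 of the 9 tested slow-type genes, with a median of 0.90, but gave no adjusted p for 6247 of 8260 genes. A gene without an adjusted p could not be called, so this 0 does not show that the 9 genes failed the test.

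Among fast-type genes, 9 of 21 fell and 0 rose, with a median of -0.27. The other 12 did not pass, from the channel gene Cacna1s at 0.06 downwards. Casq1, the calsequestrin of fast fibres, had 1127, 836, 1223 and 1619 CPM in the high sections of muscles 1 to 4 and 1574, 1205, 1960 and 2237 CPM in the low sections. It was lower in each muscle by 0.48, 0.53, 0.68 and 0.47 log2 units, and the fitted difference was -0.54 ± 0.08 (edgeR adjusted p = 1.56e-07). Pvalb, the calcium buffer parvalbumin, had 7633, 5622, 5637 and 7078 CPM against 10404, 8479, 8269 and 8500 CPM, with no overlap of the sides (-0.46 ± 0.09). The further falls were those of the fast myosin-binding protein C Mybpc2 (-0.44), the calcium channel subunit Cacng1 (-0.42), the tropomyosin Tpm1 (-0.40), the Z-disc actinin Actn3 (-0.39), the AMP deaminase Ampd1 (-0.37) and the fast light chains Myl1 (-0.36) and Mylpf (-0.31). Pvalb, Tpm1 and Myl1 used at least 90% of their molecular tags in some section, so their values are uncertain. Myh4, which stands in the denominator of the score, is a fast-type gene itself. With Myh4 left out of the score, 0 of the 21 passed and the median was -0.14.

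Of 14 listed genes of fatty acid uptake and storage 11 were tested, 5 rose, 6 did not pass and 0 fell, with a median of 0.46. Lpl, the lipoprotein lipase that frees fatty acids at the capillary wall, had 299, 377, 418 and 188 CPM in the high sections of muscles 1 to 4 and 237, 218, 246 and 147 CPM in the low sections. It was higher in every muscle, most in muscles 2 and 3 (0.79 and 0.77) and less in muscles 1 and 4 (0.33 and 0.36), with a fitted difference of 0.57 ± 0.08 (edgeR adjusted p = 5.73e-08). Fabp3, the fatty acid carrier of heart and oxidative muscle, had 104, 129, 123 and 127 CPM against 87.5, 68.8, 98.6 and 91.5 CPM, with no overlap (0.48 ± 0.08). The fatty acid transporters Cd36 (0.46 ± 0.09) and Slc27a1 (0.52 ± 0.14) and Dgat2, which makes triglyceride (0.92 ± 0.26), completed the 5. With Myh4 left out of the score 0 of these passed, with a median of 0.21.

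Of the listed nuclear genes of mitochondrial oxidation a minority passed between the quartiles, all of them higher. Over all genes tested 1.92% were higher. Of 21 beta oxidation genes 3 rose, Acadvl (0.47 ± 0.12), Hadha (0.39 ± 0.08) and Acadl (0.26 ± 0.08), and 0 fell. In the citric acid cycle list 2 of 25 rose, the aspartate aminotransferases Got1 (0.26 ± 0.08) and Got2 (0.28 ± 0.08). In the list of nuclear complex I genes 3 of 36 rose, Ndufa4 (0.41 ± 0.08), Ndufa8 (0.30 ± 0.08) and Ndufb8 (0.26 ± 0.08). Ndufa4 is named for complex I but its protein is a subunit of cytochrome c oxidase. Of 38 genes for complexes III and IV and ATP synthase 4 rose, Cox8b (0.41 ± 0.08), Uqcrc1 (0.39 ± 0.08), Atp5g3 (0.28 ± 0.07) and Cox4i1 (0.26 ± 0.08). Cox8b, the heart and muscle isoform of that subunit, had 414, 299, 297 and 296 CPM in the high sections of muscles 1 to 4 against 268, 261, 215 and 233 CPM. The medians of these 4 lists were 0.19, 0.07, 0.09 and 0.11. Differences were positive in 19 of 21, 19 of 25, 29 of 36 and 34 of 38 tested genes, but most were small. Of the beta oxidation genes 0 passed without muscle 3. Of the citric acid cycle genes 0 passed without muscle 1, without muscle 2 or without muscle 3. Complexes III and IV and ATP synthase kept Cox8b and Uqcrc1 without muscle 1 and Cox8b alone without muscle 3, and complex I kept Ndufa4 alone without muscle 3. With Myh4 left out of the score 0 genes of beta oxidation and of the citric acid cycle passed, while Ndufa4, Cox8b and Uqcrc1 rose and the complex I gene Ndufa2 fell. Of the 13 mitochondrially encoded genes, 11 were near tag saturation; mt-Atp8 rose (0.43 ± 0.08) and the list median was -0.09. Without muscle 2, mt-Atp6, mt-Cytb, mt-Nd2 and mt-Nd4 fell as well.

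The subunits of lactate dehydrogenase went in opposite directions. Ldhb, the heart-type lactate dehydrogenase subunit, had 37.7, 33.9, 27.5 and 20.1 CPM in the high sections of muscles 1 to 4 and 29.8, 16, 13.5 and 15.6 CPM in the low sections, a rise of 0.67 ± 0.12 (edgeR adjusted p = 5.11e-05). Ldha, the muscle-type subunit, fell by 0.31 ± 0.08. Ckmt2, the mitochondrial creatine kinase of muscle, had 393, 385, 376 and 418 CPM against 339, 233, 277 and 350 CPM, with no overlap (0.41 ± 0.08). The cytosolic creatine kinase of muscle, Ckm, did not pass (-0.23 ± 0.09, edgeR adjusted p = 0.174). Myoglobin (Mb) rose by 0.31 ± 0.08 and the growth factor gene Vegfb by 0.42 ± 0.10. Car3, the muscle carbonic anhydrase, went the other way, at 1578, 2016, 830 and 976 CPM against 2176, 2685, 1523 and 1382 CPM (-0.56 ± 0.08, edgeR adjusted p = 1.17e-07). Without muscle 3, Ldhb, Ckmt2 and Car3 still passed. Of the 10 tested genes of this list 0 passed with Myh4 left out of the score, with a median of 0.14.

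In glycolysis and glycogen metabolism, 25 of 26 listed genes were tested, 1 rose and 6 fell, with a median of -0.16. The fall was largest for Ppp1r3c, which brings protein phosphatase 1 to glycogen, at 292, 353, 72.7 and 59.97 CPM in the high sections and 400, 487, 116 and 69.2 CPM in the low sections (-0.46 ± 0.08, edgeR adjusted p = 1.87e-05). Pyruvate kinase (Pkm, -0.36), phosphoglucomutase (Pgm1, -0.34), aldolase A (Aldoa, -0.32, near tag saturation), glycogen phosphorylase (Pygm, -0.32) and the phosphorylase kinase subunit Phka1 (-0.26) fell as well. The gene that rose was Hk2, the hexokinase that traps glucose in the fibre, at 60.1, 74.6, 146 and 71 CPM against 48.8, 49.3, 102 and 61.1 CPM (0.41 ± 0.09). With Myh4 left out of the score Ppp1r3c alone of these passed (-0.39). Of the falls, those of Pgm1 and Ppp1r3c alone passed without muscle 1 or without muscle 3. Limma with equal section weights called the rise of Hk2 and 0 falls, with a list median of -0.05. The median over all genes was 0.18 in that fit, against -0.01 in edgeR, so the list median still lay below it.

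Of 33 listed regulators of fibre type 31 were tested, and 1 rose and 1 fell, with a median of -0.01. Esrrg, a nuclear receptor that drives oxidative genes, rose by 0.45 ± 0.14, with differences of -0.02, 0.71, 0.70 and 0.35 in muscles 1 to 4. Eya4, a transcriptional coactivator, had 26, 26.8, 20.7 and 20.3 CPM in the high sections and 32.4, 40.5, 33.4 and 26.1 CPM in the low ones (-0.50 ± 0.11, edgeR adjusted p = 0.00139). Ppargc1a, the PGC-1α gene, did not pass (0.18 ± 0.11, edgeR adjusted p = 0.51). Neither did Nfatc1, a calcineurin-dependent factor of slow and type 2A fibres (0.52 ± 0.19, edgeR adjusted p = 0.12). Without muscle 3, or with Myh4 left out of the score, 0 of these regulators passed.

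Some genes of vessels, blood, connective tissue and macrophages were higher in the high sections. Of 16 tested endothelial genes 2 rose, the junction cadherin Cdh5 (0.99 ± 0.26) and the VEGF receptor Flt1 (0.32 ± 0.10), with a list median of 0.18. Of 6 tested smooth muscle genes Acta2 (0.50 ± 0.08), Myh11 (0.48 ± 0.11) and Tagln (0.37 ± 0.10) rose. In muscles 1 and 2 alone 0 of 7 tested smooth muscle genes passed in edgeR, with a list median of 0.05. In muscles 3 and 4 alone Acta2 and Tagln passed, with a list median of 0.44. Of 5 erythrocyte genes 4 passed, the globins Hba-a1 (0.71 ± 0.10), Hba-a2 (0.95 ± 0.11), Hbb-bs (0.63 ± 0.10) and Hbb-bt (0.44 ± 0.11). The globins were higher by 0.93 to 1.42 in muscles 1 and 2 but lower in muscle 4, where Hba-a1 differed by -0.28, and reads of each near-identical pair may be split between its copies. In muscles 3 and 4 alone 0 of the 5 passed in edgeR, with a list median of -0.12. Fibro-adipogenic progenitors are resident mesenchymal cells of muscle, and of 12 tested genes in their list 5 rose and 1 fell. Cxcl14, a chemokine, had 25.7, 23.7, 21.8 and 24.9 CPM against 9.18, 12.3, 10.6 and 17.5 CPM, with no overlap (0.95 ± 0.14, edgeR adjusted p = 1.20e-07). The microfibril gene Mfap5 (0.71), the basement membrane collagen Col15a1 (0.66), and the proteoglycans Lum (0.96) and Dcn (0.36) rose, and the fibrillar collagen Col1a1 fell (-0.52 ± 0.09). Among 5 tested macrophage genes C1qb (0.67 ± 0.17) and Lyz2 (0.76 ± 0.22) rose, and the class II histocompatibility gene H2-Eb1, in no list, rose by 0.61 ± 0.12. Of the endothelial, smooth muscle, erythrocyte and fibro-adipogenic genes 0 passed with Myh4 left out of the score, and C1qb was the 1 macrophage gene that did. Without muscle 3, 0 endothelial genes passed, and without muscle 1, 0 macrophage genes. How far these cells contributed to the other differences was not tested.

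Schwann cell genes had the highest and tendon genes the lowest median difference of the lists tested, but only over the members that passed the filter on low counts. Of 7 Schwann cell genes 4 were tested and all 4 rose. Mbp, myelin basic protein, had 4.59, 4.16, 3.32 and 3.95 CPM in the high sections of muscles 1 to 4 and 0.860, 0.943, 0.587 and 1.61 CPM in the low sections (1.96 ± 0.36). The Schwann cell transcription factor Sox10 (1.43 ± 0.29) and the myelin gene Pmp22 (0.91 ± 0.20) rose too. The filter asked for 2.17 CPM or more in at least 4 of the 8 sums. Pmp22 reached that on both sides, but Mbp did so in 0 low sums and Sox10 in 1. Neither the number of Schwann cell genes that rose nor the list median is therefore support by itself. Without muscle 3, Sox10 and Pmp22 did not pass. With Myh4 left out of the score Sox10 alone passed. Of 7 tested genes of the neuromuscular junction 1 rose, the acetylcholine receptor subunit Chrne, at 9.57, 3.33, 4.92 and 7.73 CPM against 4.02, 2.83, 1.17 and 2.69 CPM (1.27 ± 0.26).

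Of 10 listed tendon and myotendinous junction genes 6 were tested, and 5 of these fell and 0 rose. Of the 5, Col22a1 reached the filter level in 1 high sum, Fmod in 2 and Chad in 3, against 4 low sums each. Neither this count nor the list median is therefore support for the list. Prg4, lubricin of tendon and joint surfaces (chr1:150449412-150466165), had 22, 13.7, 6.99 and 4.12 CPM in the high sections and 73.4, 49.6, 12.9 and 16.7 CPM in the low ones, the largest fall among the genes named by the rule (-1.65 ± 0.13, edgeR adjusted p = 3.36e-19). Chad, a cartilage and tendon matrix protein, had 4.21, 1.04, 1.95 and 3.78 CPM against 25, 10.4, 5.57 and 6.46 CPM (-2.0 ± 0.23). Ankrd1, a stretch-responsive titin partner (-1.66 ± 0.21), the collagen-binding Fmod (-1.59 ± 0.24) and Col22a1, a collagen of the myotendinous junction (-1.05 ± 0.31), completed the 5. Col22a1 did not pass without muscle 1, without muscle 3, without muscle 4 or with Myh4 left out of the score, while the other 4 did. Most low sections lay toward an end of the barcode order, and position along the muscle and low share cannot be told apart by these quartiles. Satellite cell and adipocyte genes were too low to be tested, in sums of each side. Of 9 genes of immature, denervated or intrafusal fibres 3 were tested and 0 passed. Of 8 genes listed as other sarcomeric myosin heavy chains Myh14 alone was tested (0.20), but it encodes a nonmuscle myosin. No sarcomeric member of that list was tested. Of 9 immediate early and stress genes Jun alone was tested (0.16). Neither Myh14 nor Jun passed.

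Among the genes named by the rule that stood in no list, several encode signalling or membrane proteins. Atp1b1, the beta 1 subunit of the sodium pump, had 94.2, 113, 109 and 103 CPM in the high sections of muscles 1 to 4 and 67.7, 54, 57.2 and 90.4 CPM in the low sections, with no overlap (0.65 ± 0.09, edgeR adjusted p = 7.32e-08). The scaffold pseudokinase Peak1 had 26, 42.4, 25.3 and 25.9 CPM against 19.2, 25.1, 16.1 and 13.7 CPM (0.69 ± 0.12), also without overlap. The mitochondrial methionine tRNA gene mt-Tm (0.65), the matrix gene Adamtsl5 (0.61), the smoothelin-like gene Smtnl1 (0.59) and the transcription factor Cebpb (0.59) were the other rises. Smtnl1 differed by 1.52 in muscle 3 and by 0.19 to 0.70 in the others.

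Mss51, a mitochondrial protein of fast skeletal muscle (chr14:20482867-20496901), had 114, 130, 14.5 and 33.7 CPM in the high sections and 239, 215, 66.3 and 77.5 CPM in the low sections. It was lower in each of the 4 muscles, most in muscle 3, by 2.18, and its levels in muscles 1 and 2 were above those of muscles 3 and 4 on both sides (-1.19 ± 0.10, edgeR adjusted p = 2.33e-18). Net1, an exchange factor for RhoA, had 13.2, 12.7, 8.93 and 10.3 CPM against 25, 22.9, 22.6 and 19.4 CPM, with no overlap (-1.01 ± 0.13). Prkag3, the AMP kinase subunit of glycolytic muscle (-0.52 ± 0.11), and Mstn, the growth inhibitor myostatin (-0.52 ± 0.13), fell as well. Mstn differed by -1.35 in muscle 2 and by -0.50 to -0.19 in the others. The remaining falls were those of Ctxn3 (-0.87), Tmem100 (-0.81), Serinc2 (-0.67), the annexin gene Anxa7 (-0.54), the messenger RNA cap methyltransferase gene Rnmt (-0.53), the proteasome gene Psmd13 (-0.53) and Mllt11 (-0.52). Of the 30 genes named by the rule, 11 overlap an annotated gene on the opposite strand, among them Prg4, Myl3, Atp1b1 and Peak1, and the use of strand in counting is not given in the sources used here.

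Levels were then followed over all 4 quartiles of the share. The genes had been picked by the difference between the highest and the lowest of these quartiles. Steps in that direction are therefore no support by themselves, and their share over all genes tested was not counted. Myoglobin (Mb) and Cox8b went up, and Ldha went down, at each of the 3 steps in all 4 muscles. Cox8b in muscle 3 was at 215, 217, 246 and 312 CPM from the lowest to the highest quartile. Among the other listed genes that passed, Hadha, Ndufa8, Ckmt2, Hba-a1 and Hbb-bs went up at each step in 3 muscles, and Pvalb, Mylpf, Aldoa, Pkm and Chad went down. Of the 30 genes named by the rule, Ankrd2, Lmod2 and Atp1b1 went up at each of the 3 steps in 3 of the 4 muscles. In muscle 2, Ankrd2 was at 4.48, 8.46, 9.33 and 13.4 CPM and Lmod2 at 14.9, 23, 28.9 and 39.5 CPM from the lowest to the highest quartile. Net1, Serinc2, Car3 and Col1a1 went down at each step in 3 muscles. Net1 in muscle 3 was at 22.7, 18.9, 11.4 and 9.38 CPM. Not all genes moved by steps, and Cxcl14 in muscle 1 was at 8.79 CPM in the lowest quartile and at 24.3, 19.4 and 25.1 CPM in the 3 above it. Between the upper and the lower of the 2 middle quartiles, where the fitted Myh2 difference was 0.40, 3 of 8808 genes passed (0.0341%), Lars2 (-0.42), Gucy2c (-0.60) and the clone Gm15564 (-0.43), named here because they were so few. All 3 were lower in the upper middle quartile but higher in the highest than in the lowest quartile, by 0.58, 0.31 and 0.52, of which that of Gucy2c did not pass.

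**Figure D3:**
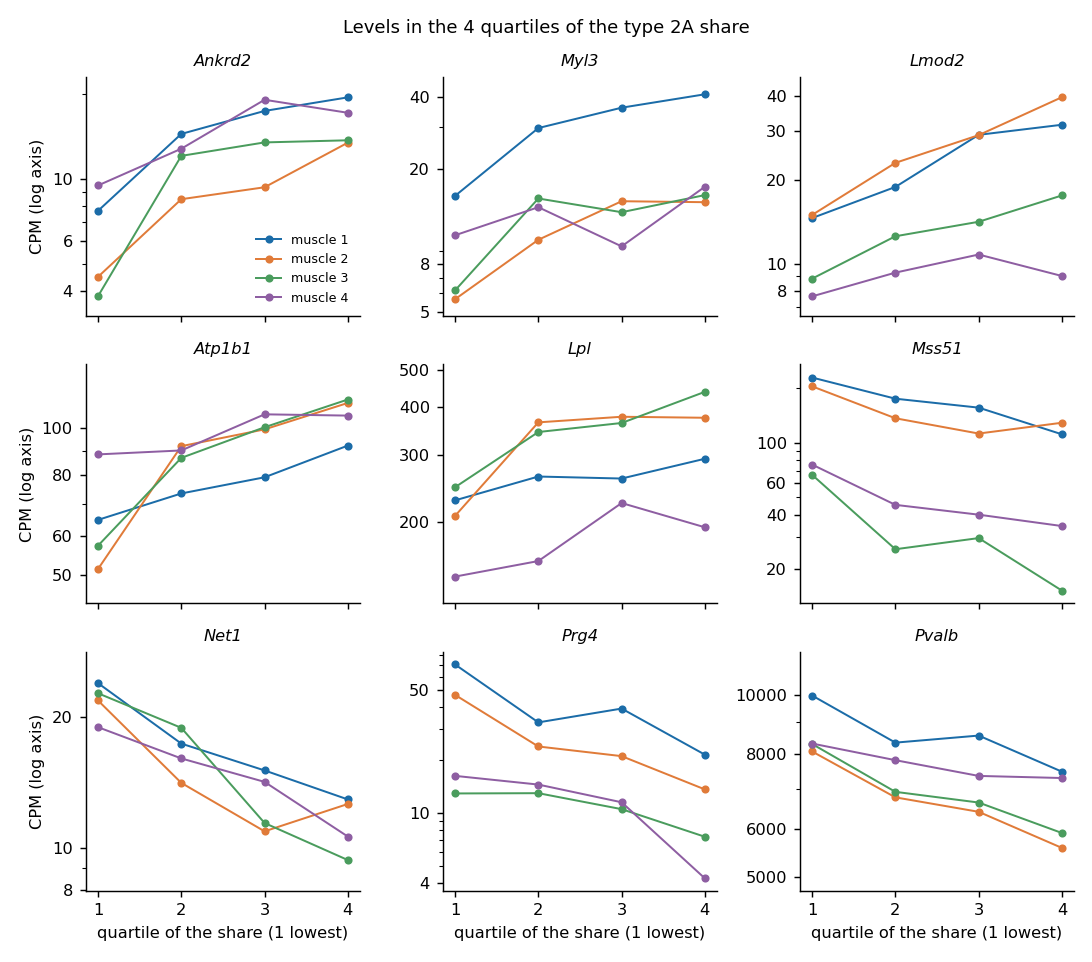
Levels in CPM (y axis, log scale) of 9 genes in the 4 quartiles of the type 2A share (x axis, 1 lowest to 4 highest), 1 line per muscle. Ankrd2, Lmod2 and Atp1b1 go up at every step in 3 of 4 muscles, Net1 goes down at every step in 3, and Mss51 differs in level between muscles 1 and 2 and muscles 3 and 4.

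Genes were also ranked over single sections, with no choice of sides. Over the kept sections of each muscle, the mean Spearman correlation with the share among 1362 genes of at least 30 CPM was highest for Atp1b1 (0.61), Mb (0.56), Lpl (0.55), Actn2 (0.54) and Hba-a1 (0.53). For Atp1b1 it was 0.65, 0.75, 0.67 and 0.38 in muscles 1 to 4. The lowest means were those of Mss51 (-0.54), Pvalb (-0.47), Car3 (-0.43), Tpm1 (-0.39) and Aldoa (-0.38). These correlations describe sections that share a library and vary in depth and position, and carry no p. Actn2, the Z-disc actinin made in all fibre types, had 146, 131, 76.5 and 63.4 CPM in the high sections and 106, 79.5, 53.4 and 52.2 CPM in the low sections (0.50 ± 0.08).

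Position was then matched more closely in 2 ways, neither of them exact. When quartiles were taken within each of 3 stretches of the muscle, so that both sides had the same number of sections from the first, middle and last stretch, the fitted Myh2 difference was 1.06 and 5 of 7274 genes passed (0.0687%). Ankrd2 (0.83 ± 0.16) and Lmod2 (0.74 ± 0.15) were higher, both at an edgeR adjusted p of 0.014. The proteasome gene Psmb7 (-0.38 ± 0.08), mt-Nd2 (-0.59 ± 0.11, near tag saturation) and the clone Gm17509 (-0.93 ± 0.18) were lower. Psmb7 had also fallen between the quartiles over the whole muscle (-0.47 ± 0.08). Gm17509 and mt-Nd2 had not passed there, at 0.09 ± 0.15 and -0.38 ± 0.12. Other leading genes did not pass: Myl3 was at 0.46 ± 0.15, Myoz2 at 0.64 ± 0.20, Atp1b1 at 0.34 ± 0.08, Net1 at -0.60 ± 0.15, Casq1 at -0.26 ± 0.07 and Prg4 at -0.58 ± 0.13. Mss51 (-0.20 ± 0.10), Lpl (0.16 ± 0.08) and Cxcl14 (0.04 ± 0.13) were nearer to 0, and their fitted differences over the whole muscle had been -1.19, 0.57 and 0.95. Inside a stretch position was not matched, and the share still varied with it. In the first stretch of muscle 1, sections 2 to 4 had shares of 2.97%, 4.70% and 3.45%, and sections 11 to 13 had 9.23%, 10.6% and 10.8%. Position and share can therefore not be told apart within stretches either.

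In the closest match, sections were cut into blocks of 4 in a row, and the section with the highest share of each block was set against the one with the lowest, again 41 against 41. The Myh2 difference was then 0.53. Depth was not matched in the blocks. The high side held 4513432, 4043310, 7886940 and 5708133 transcripts in muscles 1 to 4, and the low side 4496677, 4980504, 5110783 and 3947452. By edgeR 0 of 8445 genes passed (0%), with 380 at an unadjusted p below 0.05; DESeq2 called 1 and limma 2. The gene called by DESeq2 was mt-Nd2, at -0.37 ± 0.08 in edgeR, with -0.57, -0.18, -0.31 and -0.43 in muscles 1 to 4. Lmod2 was at 0.46 ± 0.13 (edgeR adjusted p = 0.66), with 1.03, 0.07, 0.22 and 0.58 in the 4 muscles, and Ankrd2 at 0.28 ± 0.14, with -0.01, 0.36, 0.17 and 0.83. Aldoa was lower in all 4 muscles, by 0.25, 0.16, 0.16 and 0.29, with a fitted -0.22 ± 0.07 (edgeR adjusted p = 0.89). Myl3 (-0.03 ± 0.12), Myoz2 (-0.03 ± 0.15), Mss51 (-0.05 ± 0.08) and Lpl (-0.01 ± 0.06) were close to 0. A missed threshold does not show that such genes did not differ.

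Set side by side, the medians of 14 of the 20 lists with at least 3 tested genes were nearer to 0 at each closer match of position. In 2 lists the median lay farther from 0 in the blocks than between the quartiles. For mitochondrially encoded genes it was -0.09, -0.20 and -0.19 (quartiles, stretches and blocks), and for immature, denervated or intrafusal fibre genes -0.18, -0.27 and -0.25. Of the 13 mitochondrially encoded genes 11 were near tag saturation and the sides differed in depth, so their medians are uncertain. For slow-type genes the median log2 difference was 0.88 between the quartiles, 0.43 within stretches of the muscle and 0.12 in adjacent blocks. For tendon and myotendinous junction genes it was -1.62, -0.74 and -0.25, and for Schwann cell genes 1.70, 0.52 and -0.07. For fast-type genes it was -0.27, -0.13 and -0.10, and for fatty acid uptake 0.46, 0.12 and 0.05. The tendon medians rest on 6, 5 and 6 tested genes and the Schwann cell medians on 4, 3 and 4. Some members of both lists passed the filter mainly through 1 side. The median over all genes was within 0.01 of 0 in each comparison. The contrast in Myh2 shrank over the same 3 comparisons, from 1.43 to 1.06 and 0.53, and the comparisons share sections (19 high and 16 low sections served in both the quartiles and the blocks), so they are not independent.

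**Figure D4:**
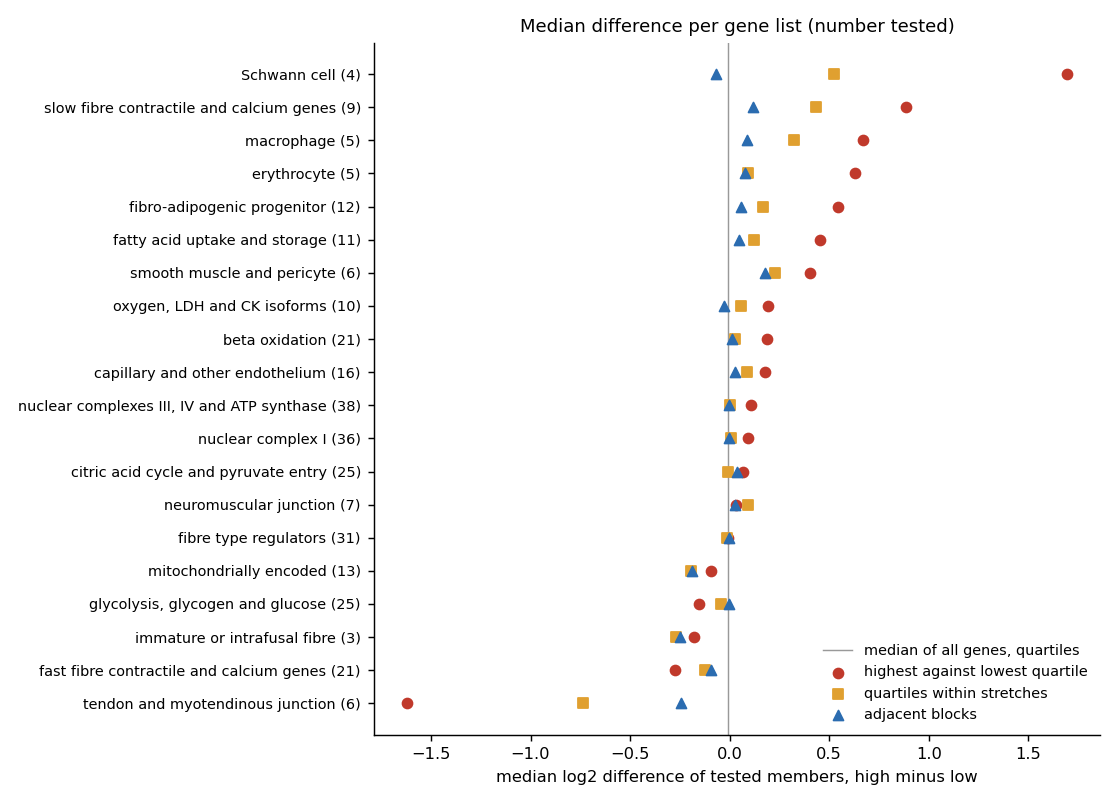
Median log2 difference, high minus low (x axis), of the tested genes of each list with at least 3 tested (y axis, number tested in brackets) for the quartiles over the whole muscle (circles), the quartiles within stretches (squares) and the adjacent blocks (triangles); the grey line is the median of all genes between the quartiles. Schwann cell and slow-type genes lie highest and tendon genes lowest between the quartiles, and the blocks lie between -0.25 and 0.18 for every list shown.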

How the data were processed

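Per the labels' protocols, TRIzol gave the RNA of each section of the 4 muscles, and CEL-Seq2, which counts transcript 3′ ends, was run in 96-well plates with a section barcode of 8 bases and a unique molecular identifier (UMI) of 6. The submitters' processing notes name STAR 2.7.7a and GRCm38. The program, annotation and strand setting used for counting are not given in those sources. The deposited estimated counts per gene and section are not whole numbers. All of them matched, within 0.001 of a UMI, the corrected value of a whole number of UMIs, and the correction grows steep where a gene uses nearly all UMIs (22 genes reached 90%). A second deposited table per muscle holds a normalized signal, and was used only to find the kept sections, whose columns are proportional to it (relative tolerance 1e-06).

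Entries naming several genes (0.58% to 0.93% of counts) were left out. Gene names and GRCm38 coordinates came from GENCODE M21 (28895 of 28989 identifiers matched). Counts were summed per muscle and side, which gave 8 sums, rounded, filtered (filterByExpr) and tested by quasi-likelihood in edgeR 4.0.16 under R 4.3.3 (TMM scaling, muscle as a block, Benjamini-Hochberg adjustment over all genes tested, threshold 0.05). The block was used because both sums of a muscle come from that muscle. Standard errors were derived from the F statistic. The biological coefficient of variation was 7.09% for the quartiles and 6.41% for the blocks. Myh1, Myh2, Myh4 and genes overlapping them stayed in the fit but out of all counts. The script was tested on simulated data.

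The rule for named genes took the 15 largest rises and 15 largest falls that passed, of one sign across the 4 muscles and averaging 10 CPM or more, skipping clone names and pseudogenes; members of 24 gene lists that passed are named besides. The members and the lists were chosen with earlier results of these data known. Alternatives were DESeq2 1.42.0, limma 3.58.1 (log2 of CPM plus 1, sections weighted equally), other scalings and filters, other choices of sections and leaving out muscles. Some genes of the lists are counted but not reported singly here.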

Additional observations from a re-analysis of the deposited data

Results flagged for a closer look

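In 4 genes the log2 difference of 1 muscle, high minus low sections, stood apart from the other 3. Myl3 differed by 0.60 in muscle 4 and by 1.25 to 1.38 in the others. Net1 differed by -1.33 in muscle 3 and by -0.91 to -0.85 in the others. Tpm3 differed by 1.24 in muscle 2 and by 0.21 to 0.39 in the others, and Dgat2 by 2.36 in muscle 2 and by 0.46 to 0.78 in the others. For each gene the gap to the nearest muscle was more than Dixon's 95% limit for 4 values as a share of the whole range. Chance flags about 1 in 20 such groups, and 103 genes were looked at. In all 4 muscles the direction of each of these genes was the same.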

How the results depend on the processing

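Of 298 genes that passed between the quartiles (159 higher, 139 lower), leaving out 1 muscle at a time gave 108 to 281 in all, 64 to 159 higher and 44 to 122 lower. Muscles 1 and 2 alone gave 112 (62 higher, 50 lower) and muscles 3 and 4 alone 99 (57 and 42). DESeq2 called 83 (31 higher, 52 lower) and gave no adjusted p for 6247 genes. It called 0 slow-type, Schwann cell and erythrocyte genes and Prg4 alone of the tendon genes. Genes without an adjusted p could not be called, so these counts do not show that the other members failed the test. Without the replicate block, that is without pairing the sides by muscle, 0 passed in edgeR, higher or lower, with 158 at an unadjusted p below 0.05. Limma with equal section weights called 187, with a split of 167 higher and 20 lower, and the fit with no filter on low counts called 239, with 186 and 53. In these 2 fits the median log2 difference over all genes was 0.18 and 0.12, against -0.01 in the main fit. The score without Myh4 gave 47 (27 higher, 20 lower), quartiles within stretches of the muscle 5 (2 and 3), and the middle quartiles 3 (0 and 3). DESeq2 size factors (297), thinned sums (227), no mitochondrially encoded genes (306), no outermost sections (219) and larger sides of about 33% (319) stayed within 1.5 times. For adjacent blocks, where 0 passed in edgeR, muscles 3 and 4 alone gave 1, DESeq2 1, no filter 3, limma 2, the score without Myh4 3 and leaving out the outermost sections 4; leaving out 1 muscle gave 0 each time. Of 98 named genes that passed, 52 still passed without muscle 3, 67 without muscle 1 and 43 in DESeq2. For DESeq2, genes without an adjusted p are counted here as not passing. With the score without Myh4 22 still passed, and 3 within stretches of the muscle. Signs turned in these cases, and the cause was not tested. Between the middle quartiles the log2 differences were Cxcl14 -0.039, H2-Eb1 -0.041, Adamtsl5 -0.29, Anxa7 0.069, Rnmt 0.0087, Casq2 -0.0097, Slc27a1 -0.035, Acadl -0.043, mt-Atp8 -0.014, Acta2 -0.027, Dcn -0.023, Lum -0.069, Mbp -0.28, Pmp22 -0.019, Lars2 -0.42, Gucy2c -0.60 and Gm15564 -0.43. Within stretches of the muscle they were Slc27a1 -0.020, Acadl -0.043, Esrrg -0.031, Hbb-bt -0.16, Gm17509 -0.93, Lars2 -0.25 and Gm15564 -0.54. With the score without Myh4 they were Tagln -0.0050, Hbb-bt -0.045, Gm17509 -0.18, Lars2 -0.25 and Gm15564 -0.43. In muscles 3 and 4 alone they were Hba-a2 -0.12, Hbb-bt -0.20, Gm17509 -1.06 and Ppargc1a -0.00036, and in muscles 1 and 2 alone Tagln -0.045. Gm17509 was at -0.24 in DESeq2. With 1 muscle left out it ranged from -0.096 to 0.26, and Gucy2c from -0.052 to 0.63. Genes at few CPM, such as the Schwann cell genes, are limited by their small counts on the low side.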
